A study of Homo sapiens with 35 samples.

Results

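Chromosome 14 was examined in maps of nuclear lamina contacts from single human cells. It was represented by the 100-kb bins of that chromosome that had a value in every cell, all of them beyond position 19000000. These were 881 of the 1074 bins of the chromosome in the table, and 881 of 26584 used bins in all (3.31%). They run from 19000001 to 107300000, a span of 88.3 Mb in the genome build hg19, in which only 2 bins (19300001 to 19400000 and 19900001 to 20000000) had no value. The 190 bins before that span had no value in any cell, so the short arm and the centromere were not measured.

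The study used KBM7, a line of human leukaemia cells, as its clone 5-5, which the labels call diploid (2N). Each cell carried the Dam adenine methylase fused to lamin B1, and all received 0.5 nM Shield1 for 15 h to induce methylation. Of the cells that carried both Fucci markers of the cell cycle, the smallest 2% had been sorted 1 by 1, and 21 extension steps were used in amplification. All cells belong to 1 clone and 1 group, and no cells carrying unfused Dam were used here, so regions were compared within the same cells, and local accessibility enters the values as far as the expectation leaves it in.

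The nuclear lamina is a meshwork of filament proteins under the inner nuclear membrane, and lamin B1 is one of its constant components. Chromatin that touches it lies in long domains that are known to be poor in genes, replicated late and mostly silent. In DamID, the fused enzyme methylates GATC sites of DNA that comes close to the lamina, and those sites are then cut, amplified and sequenced. Chromosome 14 is acrocentric: its short arm holds ribosomal RNA genes and satellite repeats, and nearly all of its other genes lie on the long arm. The immunoglobulin heavy chain genes lie at the far end of that arm. Genes were not placed in bins here, because no gene annotation of hg19 was used.

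The table held 32 cells, of which 29 had 40279 to 258225 recovered reads (median 126621) and were used for the values below. On chromosome 14 these cells had 1153 to 10271 reads (median 3833), and 1 read gave a median ratio of observed to expected reads (OE) of 0.0944 to 0.608 per bin. The other 3 cells, samples 13, 15 and 17, stood apart with 985 to 1755 reads in all and 20 to 52 on chromosome 14. A single read there gave a median OE of 13.7 to 25.0, so that every bin with a read passed the limit of a contact, an OE of at least 1. Values with all 32 cells are given beside the main comparisons. A contact can come from either copy of the chromosome and from any time during the 15 h. Since PCR copies molecules, read numbers give sequencing depth only, and the spread between cells includes that between their libraries.

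The share of chromosome 14 bins called in contact differed widely from cell to cell, and on average it was not set apart from the rest of the genome by the test. Of its bins, 26.4% ± 8.99 were in contact, against 28.7% ± 4.00 of all other used bins (SD, n = 29 cells). The lowest cell had 12.4%, the median was 25.7% and the highest cell had 43.2%, against 22.4%, 27.1% and 35.8% for the other bins. The highest share was thus 3.50 times the lowest on chromosome 14. The other bins are a mean over 25703 bins, and among single chromosomes the SD of the share over cells ran from 0.550 points (22:9) to 9.78 points (chromosome 18). Within a cell the chromosome lay between 17.2 points below and 14.9 points above the other bins, above them in 12 cells and below them in 17. Its mean difference of -2.28 points ± 8.24 (SD) did not pass the threshold of 0.05 (two-sided sign-flip permutation test over cells, adjusted p = 0.147 over 22 chromosomes). Of all chromosomes, 40.9% were above and 54.5% below the other bins, so chromosome 14 was the one left in between. With all 32 cells the shares were 24.2% ± 10.9 and 26.4% ± 8.09.

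Sample 3 had the highest share and the largest positive difference, with 43.2% of chromosome 14 in contact against 28.4% of its other bins. The second largest difference was that of sample 30, with 41.2% against 29.1%. At the other end, sample 5 had the lowest share, 12.4% against 22.4%, and sample 9 had the most negative difference, 14.8% against 31.9%. Sample 3 had 108779 reads, sample 30 had 168024, sample 5 had 85254 and sample 9 had 189766. Over the 29 cells, Pearson's r of the share with log10 reads was 0.295 on chromosome 14 (Spearman's rho 0.253) and 0.860 in the other bins (rho 0.892). For the difference between both shares it was -0.0957 (rho -0.100). These correlations are descriptions over cells that share one library preparation scheme, and no test was made of them.

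**Figure D1:**
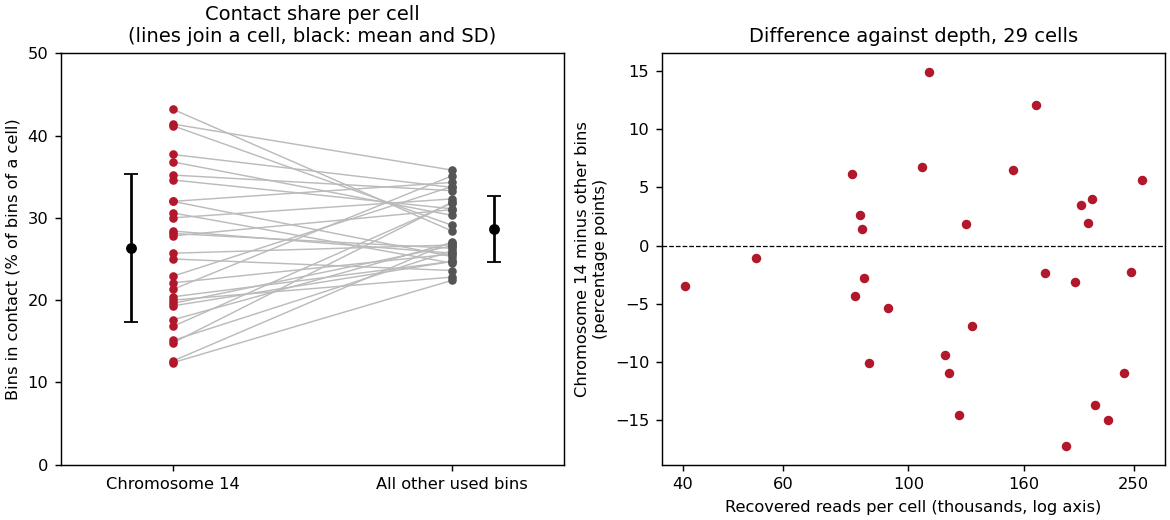
Contact share of each of the 29 cells (left; percent of bins of a cell, chromosome 14 on the left and all other used bins on the right, a line joining each cell, black points and bars the mean and SD) and the difference between both in percentage points against recovered reads on a log axis (right). The points of chromosome 14 spread from 12.4 to 43.2% and those of the other bins from 22.4 to 35.8%, and Pearson's r of the difference with log10 reads is -0.0957.

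The signal was also compared without a contact limit. The mean OE was 0.857 ± 0.392 on chromosome 14 and 0.939 ± 0.0258 in the other bins (SD, n = 29), a difference of -0.0824 that did not pass (sign-flip permutation test, adjusted p = 0.278), whereas 95.5% of the 22 chromosomes passed this test. On chromosome 14 the mean OE ranged from 0.390 in samples 5 and 7 to 2.21 in sample 3, the next highest being 1.61 in sample 30. Without sample 3 the difference was -0.130 and passed (adjusted p = 0.0362). Bins never in contact in any of these cells moved with the share of the chromosome: Pearson's r of their log2 OE ratio, chromosome 14 over the other bins, with the difference in contact share was 0.528 (Spearman's rho 0.587, 29 cells, sharing the reads of the same libraries). In sample 3 these bins had a mean OE of 0.0663 on chromosome 14 and 0.0374 elsewhere, and in sample 9 the values were 0.0486 and 0.0566. The extreme ratios lay in other cells: the highest, 3.03, in sample 27 and the lowest, 0.384, in sample 18. Their differences in contact share were 1.39 and -5.38 points. The part of this shift in the contact shares was not tested.

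The spread between cells was the second widest of the 22 chromosomes at the OE limit of 1, and its rank depended on the setting. The SD of its difference from the other bins was 8.24 points, after chromosome 21 with 9.38 and before chromosomes 18 and 15 with 7.93 and 7.90. The narrowest was that of chromosome 1, 3.50 points. The rank of chromosome 14 was 1 at an OE limit of 2, 3 with all 32 cells and with cells thinned to equal reads, 4 at a limit of 0.5 and 6 when any read made a contact. The size of a chromosome enters this order, since chromosome 14 has 881 bins, chromosome 21 has 356 and chromosome 1 has 2255. The mean absolute deviation of a cell from the mean difference was 6.61 points on chromosome 14 and 4.38 on average over the other chromosomes. This excess of 2.23 points, present in 17 of 29 cells, did not pass (sign-flip permutation test, adjusted p = 0.0573; 4.55% of the 22 chromosomes, only chromosome 21, passed in this direction). It did pass with 20 cells of at least 100000 reads (3.75 points, adjusted p = 0.0118) and at an OE limit of 2 (2.17 points, adjusted p = 0.0490). It was smaller and did not pass with all 32 cells (1.25 points, adjusted p = 0.421), with any read counted (0.930 points, adjusted p = 0.297) and without sample 3 (1.84 points, adjusted p = 0.108).

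**Figure D2:**
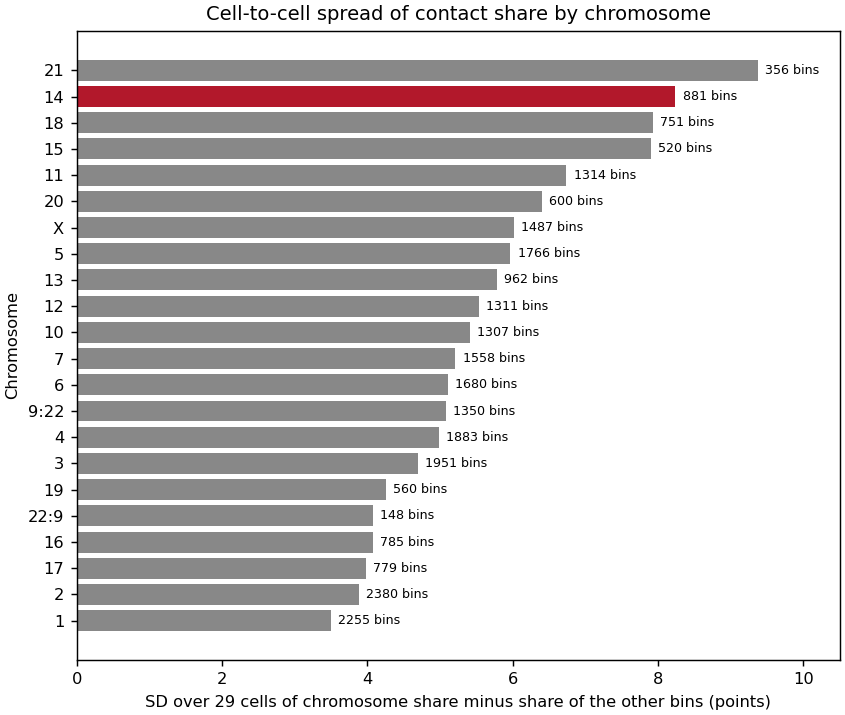
SD over 29 cells of the share of a chromosome minus the share of the other bins, in percentage points, for the 22 chromosomes in order of that SD, with the number of used bins beside each bar. Chromosome 14 (red) stands second at the OE limit of 1, with 8.24 points, below chromosome 21 at 9.38.

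Few bins of chromosome 14 touched the lamina in nearly every cell. Contact in 80% or more of the cells was found for 50 of the 881 bins (5.68%), against a background of 14.2% of all used bins, and contact in 20 to 80% of the cells for 320 bins (36.3%), against 27.5%. In no cell was contact found in 363 bins (41.2%), where the background was 42.2%, and 0 of 29 cells allows a contact frequency of up to 10.3%, for counting error only. The remaining 148 bins were in contact in some cells but under 20% of them, and 67 of these in 1 cell only. The highest contact frequency was 93.1% (27 of 29 cells), in the bins at 46600001 to 46700000 and 85100001 to 85200000, while 133 bins of other chromosomes were in contact in all 29. The bin at 46600001 had an OE of 0.811 to 7.68 over the cells with a median of 2.48, and that at 85100001 had 0 to 7.40 with a median of 2.84. Counted again, bins at 80% or more came to 14 with all 32 cells, 101 in the 20 cells of at least 100000 reads, and 157, 2 and 266 with contact limits of 0.5, 2 and any read. The share over all used bins is not given for these settings. These counts therefore show how far the number depends on the setting, and the comparison with the background holds for the main setting only.

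A bin with no preference would, from the contact shares of the cells, have been in contact in 8.29 cells. By the exact Poisson-binomial test, with Benjamini-Hochberg adjustment over all used bins, 270 bins of chromosome 14 (30.6%) exceeded this number, with 14 cells or more, and 480 bins (54.5%) fell short of it, with 3 cells or fewer. The backgrounds were 31.3% and 54.6% of all used bins, so in these counts the chromosome was close to the genome as a whole.

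**Figure D3:**
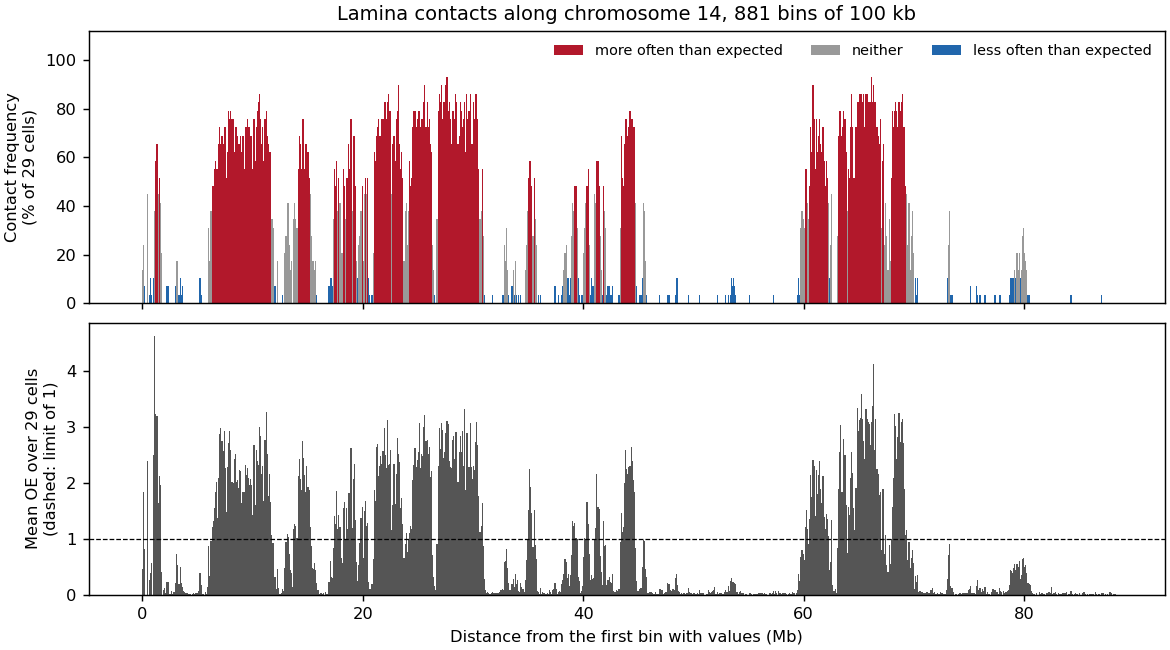
Contact frequency in percent of the 29 cells (top) and mean OE (bottom, dashed line at the limit of 1) for the 881 bins of chromosome 14, against the distance in Mb from the first bin with values. Colour gives the test of each bin, red for more cells than expected, blue for fewer (most of these are at or near 0) and grey for neither. Most bins called more often lie between 6 and 46 Mb and between 61 and 71 Mb from the first bin, and the highest frequency is 93.1%.

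Contacts were unevenly spread along the arm, with several contacted domains in its first part, a separate block at 80 to 90 Mb and little beyond it. Of 17 windows of 5 Mb that were tested, 5 were above the bins of the other chromosomes and 9 below them (sign-flip permutation tests, adjusted over 532 windows), against backgrounds of 39.7% above and 48.5% below. The share of bins in contact was highest at 45 to 50 Mb with 68.3% ± 19.6, above the other chromosomes in 29 of 29 cells, and at 40 to 45 Mb with 67.9% ± 22.7, above them in 27. Next came 25 to 30 Mb with 65.6% ± 30.2 (above in 25 cells), 80 to 85 Mb with 60.9% ± 23.5 (27 cells) and 85 to 90 Mb with 47.7% ± 20.7 (24 cells, adjusted p = 4.17e-05; the other 4 had 1.47e-05). All values are mean ± SD over 29 cells, and the 4 highest shares differed from each other by less than their spread over cells. The windows held 850 of the 881 bins, and the others are described with the ends.

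Windows of middle level lay at 30 to 40 Mb and at 60 to 65 Mb. The share was 35.3% ± 21.9 at 30 to 35 Mb, 29.6% ± 22.1 at 35 to 40 Mb and 31.0% ± 18.6 at 60 to 65 Mb, and none of these 3 differed from the other chromosomes past the threshold (adjusted p = 0.132, 0.836 and 0.510). Individual cells had from 0 to 76.0% of the bins of the first 2 of these windows in contact. With any read counted as contact, all 3 passed above the other chromosomes, by 17.3, 10.2 and 10.7 points, and at an OE limit of 0.5 the window at 30 to 35 Mb passed (12.2 points, adjusted p = 0.0113).

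The 9 windows below the other chromosomes ranged from partly to hardly contacted. At 20 to 25 Mb the share was 8.48% ± 7.96 and at 75 to 80 Mb 13.8% ± 7.81, where a contacted domain that reaches into the next window began at 78700001. At 50 to 55 and 55 to 60 Mb the share was 11.8% ± 10.8 and 12.4% ± 12.4, with up to 30.0 and 38.0% in single cells. Contacts were nearly absent at 65 to 70 Mb (0.897% ± 1.57) and 70 to 75 Mb (1.10% ± 2.43), with 21 of the 29 cells at 0 in each. The longest interval without a bin at 20% or more spanned 141 bins at 64600001 to 78700000, with a share of 1.00% ± 1.18, and 116 of these bins had no contact in any cell. At 90 to 95 Mb the share was 2.00% ± 2.62, at 95 to 100 Mb 5.66% ± 8.90 and at 100 to 105 Mb 0.0690% ± 0.371, where 28 of 29 cells had no contact.

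Both ends of the measured arm were low when drawn at 5 Mb. In the first 5 Mb (19000001 to 24000000, 48 bins) 10.8% ± 9.98 of the bins were in contact, and in the last 5 Mb (102300001 to 107300000, 50 bins) 0.138% ± 0.516, against 29.0% ± 9.71 in the 783 bins between them (SD, n = 29). The differences of -18.2 and -28.9 points were negative in 28 and 29 of 29 cells (sign-flip permutation tests; both adjusted p-values were 1e-05, which is the lower bound of 100000 resamples). The low level of the first 5 Mb depended on where the end was drawn: the difference was -2.70 points for 2 Mb (adjusted p = 0.345) and 2.40 points for 10 Mb (adjusted p = 0.206). The first 8 bins, 19000001 to 19900000, had a share of 13.4% ± 14.1. Some of them held few contacts of high OE: the bin at 19800001 had a contact frequency of 3.45% with a mean OE of 0.565 ± 3.04. Without bins of low expected reads the first 5 Mb differed from the rest by -22.5 points. How far the share of the 8 bins and the value for 2 Mb rest on such bins was not tested. At the other end, the last 23 bins (105000001 to 107300000) had a share of 0.150% ± 0.807, and 22 of them had no contact in any cell.

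Inside the low first 5 Mb, 7 adjacent bins at 20100001 to 20800000 were in contact in 45.8% of the cells on average (20.7 to 65.5% per bin). Of the 29 cells, 22 had a contact there and 7 had none. The mean OE of the stretch ran from 0 to 10.9 over the cells with a median of 0.807. Its first bin, 20100001 to 20200000, had the highest mean OE of the chromosome, 4.62 ± 6.58 (SD, n = 29), but a median of 0, and 1 read in that bin gave a median OE of 6.63 in place of 0.191 on the chromosome. This stretch, and the others at 20% or more below, were picked with their values in view.

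Stretches of adjacent bins at 80% or more, the 6 longest of which follow, are given for this chromosome only. They numbered 23, with 0.100 Mb as their median length, and a single one measured 1 Mb. It lay at 84600001 to 85600000, with 85.2% of cells in contact on average and an OE of 3.15 ± 1.79 (0.175 to 7.56 over 29 cells). In 18 cells all of its 10 bins were in contact, and the lowest cell had 10.0% of them. The second lay just before it, at 83800001 to 84500000 (0.700 Mb, 84.7%), where 19 cells had all bins in contact and sample 5 had none. Neighbouring stretches lay at 46300001 to 46700000 (87.1%) and 45900001 to 46200000 (86.2%), and 2-bin ones, the first along the arm among several of that length, at 29500001 to 29700000 (84.5%) and at 40900001 to 41100000 (82.8%). No cell lacked contact in either of the stretches at 46 Mb, where the lowest cells had 50.0 and 33.3% of the bins. Contact was missing in sample 8 at 29500001 and in samples 9 and 35 at 40900001. Within 1 Mb of these 6 stretches the contact frequency was still 61.9 to 72.8%.

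With a lower limit of 50% of the cells, which was set after the data were seen, the same places joined into larger domains. The longest of 31 such stretches covered 52 bins at 25500001 to 30700000. Its bins touched the lamina in 68.6% of the cells, with an OE of 2.23 ± 1.34, and its flanks of 1 Mb in 15.3%. The next ones were 3.80 Mb at 45800001 to 49600000 (78.4%, OE 2.61 ± 1.41) and 3.00 Mb at 83000001 to 86000000 (77.1%, OE 2.61 ± 1.43). Stretches of 1.90 Mb at 43400001 to 45300000 (74.6%), 1.60 Mb at 40000001 to 41600000 (74.8%) and 1.30 Mb at 79600001 to 80900000 (69.0%) followed.

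Of the stretches between 20 and 80% contact frequency, the longest covered 4.30 Mb at 25200001 to 29500000, with 66.2% on average. Its share of bins in contact ran from 4.65% to 100% over the cells with a median of 74.4%, and 4 cells had every bin in contact. The others were at 36300001 to 38400000 (21 bins, 49.1%), 32700001 to 34400000 (1.70 Mb, 53.5%) and 42800001 to 44500000 (1.70 Mb, 62.5%). At 32700001 to 34400000 all bins were in contact in 5 cells, and none in samples 8, 9, 18 and 35. Smaller domains at 20% or more stood in the less contacted middle of the arm. At 62300001 to 63800000 (15 bins) the contact frequency was 65.1%, and 26 of 29 cells had a contact there. It was 41.7% at 53800001 to 54800000 (21 cells), 39.1% at 57900001 to 58500000 (17 cells), 36.8% at 59000001 to 59600000 (19 cells) and 46.6% at 60000001 to 60600000 (20 cells). Each of these had a mean OE above 1, from 1.05 to 1.87, with SDs over cells of 0.992 to 1.39. The median OE over cells was 1.77 at 62300001 and 1.06 at 60000001, but below 1 at 53800001 (0.714), 57900001 (0.853) and 59000001 (0.861). Between 53800001 and 64600000, the domains at 20% or more that were not listed here had a mean OE of 0.609 (57300001 to 57500000), 1.02 (60800001 to 61100000) and 0.973 (64400001 to 64600000).

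The 6 longest stretches in contact in no cell all lay beyond 74 Mb. The longest covered 3.70 Mb at 99500001 to 103200000, where 236 reads were recovered over the 29 cells and the mean OE was 0.0291 ± 0.0283. A single bin separated it from the next, 2.70 Mb at 103300001 to 106000000, with 56 reads and an OE of 0.0151 ± 0.0205. The others were 2.60 Mb at 89400001 to 92000000, 21 bins each at 74100001 to 76200000 and 76300001 to 78400000, and 1.60 Mb at 92500001 to 94100000, with a mean OE of 0.0166 to 0.0394. Of the 51 stretches of this kind, 13 reached 1 Mb. Between the stretches at 89400001 and 92500001 sat 2 bins at 92100001 to 92300000 with a contact frequency of 31.0%, in contact in 13 cells. Farther out, 3 bins at 98800001 to 99100000 had 26.4%, in contact in 12 cells. In the last 82 bins, from 99100001 to the end, no bin exceeded 17.2% and the share was 0.547% ± 1.01. With any read counted, 25 bins of the chromosome in place of 363 had no contact in any cell, and the background of that setting is not given.

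Of the 17 windows of chromosome 14, the one at 25 to 30 Mb had the widest spread between cells. Its SD of 30.2 points was the largest of 285 windows of the genome with a mean share of 20 to 80%, whose median SD was 15.7 points. In 12 cells at least 80% of its bins were in contact, and in 3 cells under 20%. Sample 33 had all of them (100%), samples 21, 24 and 30 had 98.0%, and samples 3, 25 and 28 had 96.0%. At the low end stood sample 9 with 6.00%, sample 35 with 8.00% and sample 8 with 16.0%. The windows at 80 to 85, 40 to 45, 35 to 40 and 30 to 35 Mb were 12th, 18th, 23rd and 25th in the same order of SD. No test was made of these ranks, and windows were not matched for their mean share.

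**Figure D4:**
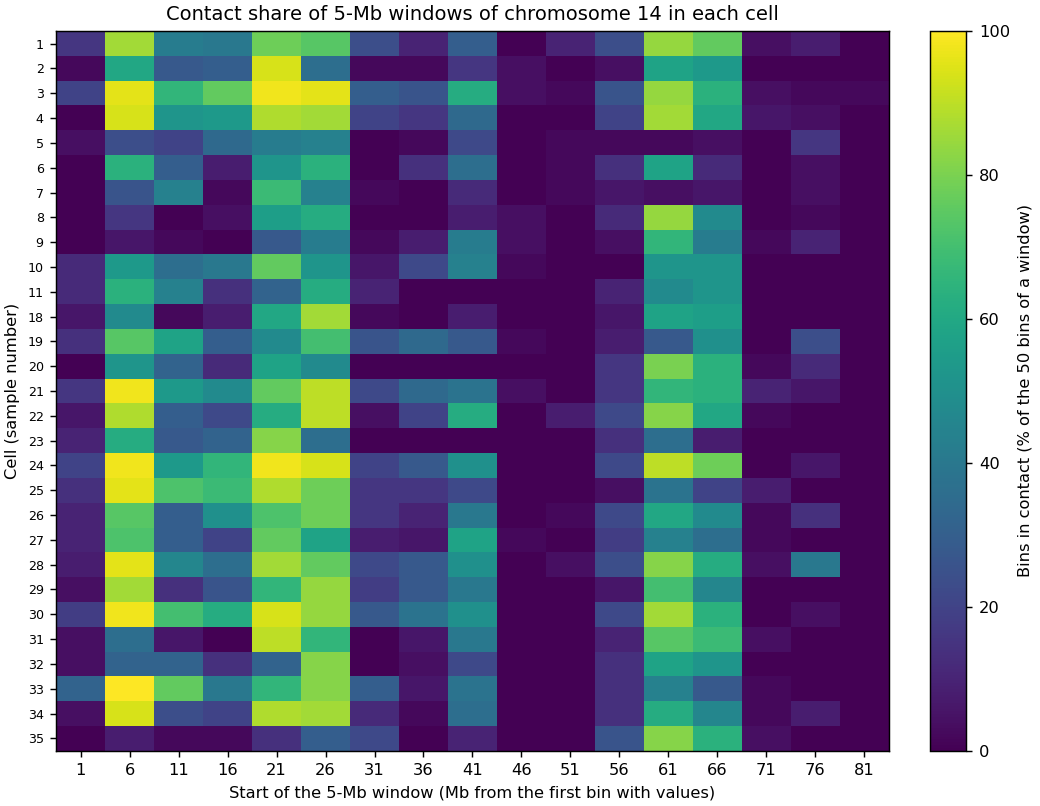
Percent of the 50 bins in contact in each 5-Mb window of chromosome 14 (columns, by distance in Mb of the window start from the first bin with values) in each of the 29 cells (rows, by sample number). The column starting at 6 Mb runs from 6.00% in sample 9 to 100% in sample 33, and the columns starting at 61 and 66 Mb are high in some cells in which it is low, such as samples 8 and 35.

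Cells with more contact in one of the windows between 25 and 65 Mb tended to have more in the others, while the block at 80 to 90 Mb followed them less closely. After a straight line on the share of the other chromosomes was taken off each window, Pearson's r between the 28 pairs of windows from 25 to 65 Mb was 0.273 to 0.772 with a median of 0.561. The windows at 80 to 85 and 85 to 90 Mb had an r of 0.707 with each other. Between these 2 windows and the 8 proximal ones the r of the 16 pairs was -0.0409 to 0.408, with a median of 0.161. All are descriptions over 29 cells, whose windows share the reads of 1 library per cell, and the limits of both blocks were drawn after seeing them. Pairs between the blocks were on average farther apart than pairs within them. On other chromosomes the median r of windows was 0.229 at 25 to 40 Mb and 0.164 at 45 to 65 Mb. The part of distance in the contrast between the blocks was not tested. Less contacted windows beside the blocks moved with them too. The window at 20 to 25 Mb had an r of 0.417 to 0.737 with the 8 proximal windows, and of 0.102 and 0.254 with the distal ones. The window at 75 to 80 Mb had an r of 0.526 and 0.349 with the distal windows and of 0.0870 to 0.535 with the proximal ones, so the block edges are not sharp. The median r within the proximal windows, the r within the distal ones and the median between them were 0.679, 0.757 and 0.272 in the 20 cells of at least 100000 reads, 0.450, 0.654 and 0.158 with any read counted, 0.558, 0.679 and 0.142 with cells thinned to equal reads, and 0.524, 0.723 and 0.152 with all 32 cells. Without sample 3 they were 0.531, 0.693 and 0.0820.

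Taken as wholes, the proximal block (400 bins) had 40.2% ± 15.7 of its bins in contact, from 11.0 to 68.8%, and the distal block (100 bins) 54.3% ± 21.1, from 3.00 to 84.0% (SD, n = 29). Pearson's r between both was 0.218 (Spearman's rho 0.211) after the same correction. It was 0.140 (rho 0.133) without sample 3, 0.156 (rho 0.135) with all 32 cells and 0.407 (rho 0.320) at an OE limit of 2. Sample 35 held the lowest proximal share, 11.0%, with 73.0% in the distal block. In sample 8 the shares were 18.2 and 66.0%, and in sample 20 they were 25.2 and 72.0%. The opposite was seen in sample 25, with 57.0% proximal and 29.0% distal, and in sample 33, with 54.8 and 36.0%. Sample 5 was low in both, with 23.5 and 3.00%. Samples 3, 24 and 30 were high in both blocks, at 63.5 to 68.8% and 74.0 to 84.0%.

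**Figure D5:**
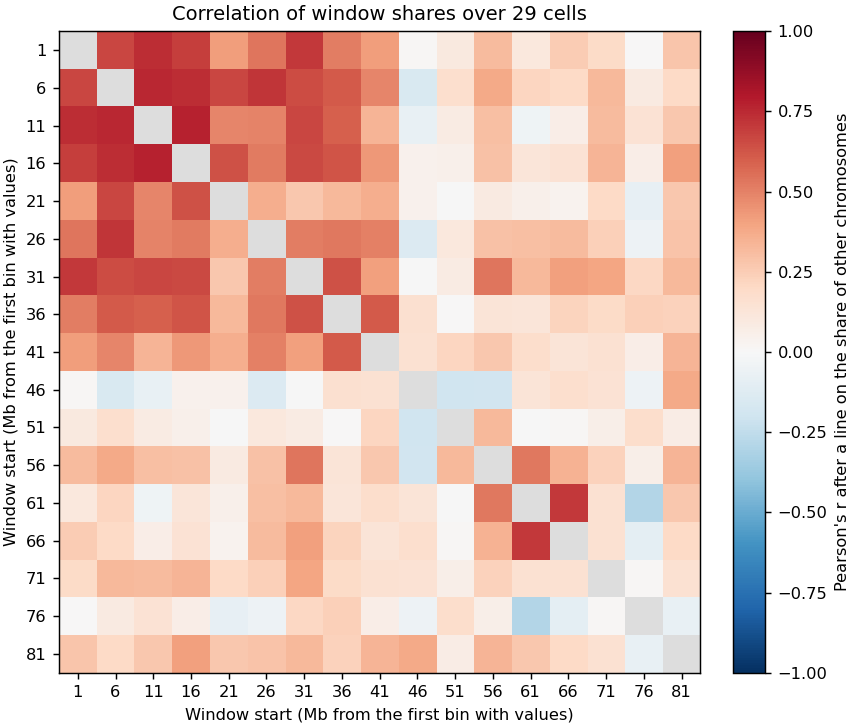
Pearson's r over 29 cells between the contact shares of the 17 windows of chromosome 14, each after a straight line on the share of the other chromosomes; both axes give the window start in Mb from the first bin with values, and the diagonal is grey. The windows starting at 6 to 41 Mb have a median r of 0.561, those at 61 and 66 Mb an r of 0.707, and the median between both sets is 0.161; the window starting at 1 Mb has 0.417 to 0.737 with the first set.

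Windows of 20 to 80% mean share were also set against those of the other chromosomes at the same distance. For neighbouring windows, 5 Mb apart, the median r was 0.707 over 5 pairs on chromosome 14 and 0.487 over 185 pairs elsewhere. At 10 to 20 Mb it was 0.502 (9 pairs) against 0.291 (462 pairs), at 25 to 40 Mb 0.314 (7 pairs) against 0.229 (508 pairs), and at 45 to 65 Mb 0.118 (7 pairs) against 0.164 (489 pairs). By this median, chromosome 14 stood first of 15 chromosomes with at least 3 pairs at both of the shorter distances. It was 2nd at 25 to 40 Mb and 12th at the longest. Pairs share windows and cells, and these ranks were not tested.

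Contacts in single cells ran over several bins at a time. A cell had 51.6 ± 11.6 runs of adjacent contacted bins on chromosome 14 with a mean length of 467 kb ± 194, and 6.31 ± 3.41 of them reached 1 Mb (SD, n = 29). The longest run of a cell measured 3.32 Mb ± 1.38, from 1.10 Mb in sample 5 to 5.80 Mb in samples 24 and 25. In both of the last it covered 25200001 to 31000000. The longest run lay between 40 and 50 Mb in 13 cells. It lay between 80 and 90 Mb in 10 and between 25 and 40 Mb in 6, so its place differed between cells. A run ends at any bin under an OE of 1, so its length can depend on depth. Samples 24 and 25 had 258225 and 79421 reads, and sample 5 had 85254. Run lengths in other settings or on other chromosomes are not given.

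The overlap of contacts was computed for each pair of cells. The median Jaccard overlap, the shared over all contacted bins of a pair, was 0.437 on chromosome 14 (0.0901 to 0.834, SD 0.133) and 0.533 in the other bins (0.355 to 0.686, SD 0.0689) over 406 pairs. These are descriptions, since pairs share cells, the 881 bins are set against 25703, and the measure depends on the mixture of contact frequencies. Samples 5 and 35 had the lowest overlap, 0.0901 on chromosome 14 against 0.400 in their other bins. The highest, 0.834 against 0.624, was that of samples 24 and 30.

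Chromosome 14 was set against the other acrocentric chromosomes listed under their own names, 13, 15 and 21, in 3 pairs. Its share of 26.4% ± 8.99 was below the 36.0% ± 8.48 of chromosome 13 in 26 of 29 cells (sign-flip permutation test, difference -9.68, adjusted p = 3e-05 over 3 pairs). It was above the 20.8% ± 8.68 of the measured parts of chromosome 15, by 5.57 points and in 19 cells (adjusted p = 0.0122). Against chromosome 21, with 21.6% ± 9.63, it was higher by 4.75 points and in 21 cells (adjusted p = 0.0476). This last call was lost in 19 of the 29 repeats that left out 1 cell each, with the highest adjusted p, 0.0902, without sample 28. It was also lost with the 20 cells of at least 100000 reads (4.76 points, adjusted p = 0.141) and at an OE limit of 2 (3.51 points, adjusted p = 0.0751). With all 32 cells the 3 differences kept their direction and passed. Bins at 80% or more made up 5.68% of chromosome 14, 18.0% of chromosome 13, 1.54% of chromosome 15 and 2.53% of chromosome 21, and bins at 20 to 80% made up 36.3, 35.4, 33.8 and 35.7%.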

How the data were processed

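Lamin B1 DamID was measured in single cells. The deposited table holds ratios of observed to expected reads (OE) per 100-kb bin and cell, per the file headers. Per the submitters' processing notes, cutadapt, Bowtie2 2.1.0 and hg19 were used; how the expectation, filters and duplicates were handled is not given in the sources used here. The labels list 35 cells, of which 32 had a column with the number of their title, and the other 3 were not analysed here.

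Whole reads were recovered from the steps of the OE values (100% whole within 0.01 reads, which follows from the method). Cells with at least 10000 reads were used, 29 in all. Contact was an OE of at least 1. Shares were compared within cells by two-sided sign-flip permutation tests with 100000 resamples and Benjamini-Hochberg adjustment over 22 chromosomes (X and those named 9:22 and 22:9 included, chromosome 8 without values), 532 windows of 5 Mb with at least 25 used bins, 3 pairs or 2 ends. Bins were tested by an exact Poisson-binomial test adjusted over 26584 bins. The threshold was 0.05. Nothing says that the cells came from separate cultures, so p-values measure only the spread between these cells. Calculations used Python 3.11.15, numpy 2.4.6, pandas 2.3.3 and scipy 1.17.1 and were tested on simulated data.

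Named regions were every 5-Mb window, the 6 longest stretches of bins at 80% or more, the 6 longest at 0% and the 4 longest between (ties to the lower start), and named cells were those with extreme shares or differences; other regions and cells were picked with their values in view. The chromosome, windows and rules were chosen with earlier results of these data known. Alternatives were the cells used, the OE limit, equal reads, bins of low expected reads, the bins compared with, window size and length of an end. Leaving out each cell in turn was added after seeing the data. No genes or sequences were placed in bins, since no genome or annotation of hg19 was used here.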

Additional observations from a re-analysis of the deposited data

Results flagged for a closer look

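Reads on chromosome 14 were also present in the 3 shallow cells that the comparisons above left out, above the 3 reads that a count of 0 allows. Sample 13 had 20 reads in 20 bins, of which 4 were bins in contact in at least 80% of the other 29 cells, 15 were in contact in 20 to 80% and 1 in fewer. Sample 15 had 23 reads in 21 bins, with 9, 10 and 1 in the same classes and 1 in a bin in contact in none of the 29. Sample 17 had 52 reads in 46 bins, with 13, 30 and 3. Of all used bins of chromosome 14, these 3 classes made up 5.68, 36.3 and 16.8%, and bins in contact in no cell 41.2%. No test was made of these counts. Bins with a read made up 2.27, 2.38 and 5.22% of chromosome 14 in samples 13, 15 and 17, against 3.56, 4.16 and 6.02% of the other bins.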

How the results depend on the processing

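Over the alternatives other than leaving out a cell, 96 of the values that answer a comparison had the same sign and call, or a count within 1.5 times, as reported. Of the others, 9 were counts that moved farther, 3 lost their call, 2 gained one and 1 turned its sign. The difference of chromosome 14 from the other bins was -2.57 to -0.487 points and did not pass in any of 8 alternatives (adjusted p 0.108 to 0.680). The difference from chromosome 13 (-11.0 to -7.07 points) and from chromosome 15 (4.87 to 6.30 points) passed in all 7, and that of the last 5 Mb (-46.2 to -17.6 points) in all 9. The cause of the changes below was not tested. Bins at 80% or more numbered 50, against 14 with all 32 cells, 101 in cells of at least 100000 reads, and 157, 2 and 266 with limits of 0.5, 2 and any read. With any read, 25 bins in place of 363 had no contact and 8 windows in place of 5 lay above. The shares over all used bins and windows are not given for these settings. With 10-Mb windows, of which there are fewer, 3 lay above and 5 below, in place of 5 and 9. The excess deviation passed in cells of at least 100000 reads (3.75 points, adjusted p 0.0118) and at a limit of 2 (2.17 points, adjusted p 0.0490), within a range of 0.930 to 3.75 points and adjusted p 0.0118 to 0.421. The difference from chromosome 21 lost its call in these settings (4.76 and 3.51 points, adjusted p 0.141 and 0.0751, within a range of 0.00141 to 0.141). The first end was -2.70 points for 2 Mb (adjusted p 0.345) and 2.40 points for 10 Mb (adjusted p 0.206). The window at 35 to 40 Mb turned to -2.55 points at a limit of 2 and to -0.600 points without bins of low expected reads, and that at 60 to 65 Mb to -1.38 points at a limit of 2, none past the threshold. The window at 30 to 35 Mb passed at a limit of 0.5 (12.2 points), with 6 windows above.

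Leaving out each cell in turn moved the difference in share between -2.90 and -1.75 points, and that in mean OE between -0.130 and -0.0646, which passed without sample 3 only. The excess deviation ran from 1.84 to 2.45 points and passed in 5 of 29 repeats, and the difference from chromosome 21 from 3.75 to 5.61 points, with the call lost in 19. The other 10 results kept their calls, or a count within 1.5 times, in each repeat. Bins at 80% or more, for example, ran from 50 to 66. Depth limits the shares: 1 read gave an OE of up to 0.608 in the shallowest of the 29 cells.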

Other observations

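The difference of chromosome 14 from the other bins was set against that of each other chromosome. Over 29 cells, Pearson's r of its difference from the other bins with the same difference of each of the other 21 chromosomes was -0.377 (chromosome 4) to 0.261 (chromosome 13), with a median of -0.0675. The differences share their cells, and each is taken against bins that include the other chromosome, so these are descriptions.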
